A study of Mus musculus with 20 samples.

Results

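Amino acid transporter genes were followed in livers of fetal mice from nutrient-restricted pregnancies. They were taken by gene symbol: every protein-coding gene of the SLC1, SLC7, SLC36, SLC38 and SLC43 families, plus Slc3a1 and Slc3a2, whose products are heavy chains that carry several SLC7 transporters to the cell surface. The rule itself used no measured value, though it was set with earlier results of these data known. It found 43 gene models with 42 symbols in the annotation, where 26830 genes of any kind had at least a single count in a fetus. Slc38a9 names a gene at chr13:113450984-113523106, forward strand, and also a short model just downstream of it at chr13:113523861-113525267, forward strand (build mm9). In the litter sums, 37 of the 43 models passed the filter on low counts that edgeR's filterByExpr applies, among 17573 genes in all, and 6 did not.

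The fetuses were males of the outbred stock CD-1 IGS at embryonic day 18.5, shortly before birth, and polyadenylated RNA of the right liver lobe was sequenced. In the maternal nutrient restriction (MNR) group, 10 fetuses came from 5 litters, and in the control group 10 fetuses came from 5 other litters, with 2 littermates from each. The labels name no engineered allele and no drug in either group, and the sources used here do not say how far or when food was restricted. The restriction was applied to the dam, so the counts of littermates were summed and each litter was 1 replicate. Litters are lettered A to E in each group, and MNR litter A and control litter A are separate litters.

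Cells take up amino acids through carriers that differ in substrate and in driving force. System A and system N carriers of the SLC38 family move small neutral amino acids and glutamine with sodium. SLC7 carriers exchange amino acids or let cationic ones through, and SLC1 carriers take up glutamate or exchange small neutral amino acids. Some SLC36 carriers work with protons, and SLC43 carriers facilitate the passage of large neutral amino acids. The liver uses them to feed urea, glucose and protein synthesis, and some members sit in the lysosome, where they take part in sensing amino acids for the growth regulator mTORC1. The name rule also takes in Slc43a3, whose product carries purine nucleobases and no amino acid.

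All 10 litters held hepatocyte RNA: the summed level of 8 hepatocyte markers was 119242 to 140773 CPM (counts scaled to the size of the library) in MNR litters and 126754 to 146972 CPM in control litters. Totals were 14925778 to 28016953 counts per fetus. Fetal liver is also a site of red cell formation, and 7 of 8 erythroid markers were in the annotation (Ahsp was not), none of them at 0. They summed to 13296 to 17470 CPM in MNR litters and 12858 to 20241 CPM in control litters. All 7 had a negative log2 fold change of MNR over control, with a median of -0.11 and none at an unadjusted p of 0.05. Pancreatic acinar transcripts summed to more than 100 CPM in 3 fetuses, MNR B fetus 1 (193 CPM), MNR E fetus 1 (139 CPM) and control B fetus 1 (427 CPM), while the acinar lipase gene Pnlip was at 0 in every litter. The 7 neutrophil markers all had a positive log2 fold change, 5 of them at an unadjusted p of 0.05, and summed to 1859 to 2678 CPM in MNR litters and 1638 to 1931 CPM in control litters. So did the 5 megakaryocyte markers, 4 at that p, with sums of 219.9 to 258.9 CPM in MNR litters and 201.1 to 249.96 CPM in control litters. The 6 stellate markers were all negative, 2 at that p, with sums of 375 to 468 CPM in MNR litters and 388 to 501 CPM in control litters. At an unadjusted p of 0.05, edgeR took 19.6% of all genes (9.95% higher and 9.69% lower in MNR litters). No marker gene of any list passed an adjusted p of 0.05 in edgeR. In this whole-tissue RNA, fewer cells of a type and less RNA per cell cannot be told apart.

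No transporter gene passed edgeR's quasi-likelihood test at a Benjamini-Hochberg adjusted p of 0.05, adjusted over all 17573 genes. The share past it among all genes was 0.666% (73 higher and 44 lower in MNR litters). At an unadjusted p of 0.05, edgeR took 9 of the 37 members (24.3%), 5 with a higher and 4 with a lower mean in MNR litters, against 19.6% of all genes (9.95% higher and 9.69% lower). The log2 fold change of MNR over control was positive for 19 members and negative for 18, with a median of 0.0064, beside -0.0027 over all genes, and the median of its size was 0.12 for members and for all genes. MNR and control litters did not overlap for 2 members, Slc38a9 and Slc36a4 (5.41%), against 4.5% of all genes. The share of members past these marks was close to that of all genes.

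The count of members called depended on the test. DESeq2 called 4 members, all higher in MNR litters (Slc7a2, Slc36a4, Slc38a9 and Slc3a1), where it called 6.62% of all genes. With limma voom and the litter as a random effect, 3 were called (Slc7a2, Slc36a4 and Slc38a9), against 6.74% of all genes. An edgeR adjusted p of 0.10 also took these 3, against 4.98% of all genes. With each fetus as its own library, which counts littermates as independent, edgeR called 7 (Slc7a2, Slc36a4, Slc38a9 and Slc3a1 higher, Slc7a1, Slc7a5 and Slc1a5 lower), against 14.3% of all genes. With only fetus 2 of each litter, 4 members passed (Slc7a2 and Slc36a4 higher, Slc7a1 and Slc7a5 lower), against 3.08% of all genes, and with only fetus 1 no gene of any kind passed in edgeR, with 3 members and 1699 genes at an unadjusted p of 0.05. Leaving out control litter B brought 4 members past 0.05 in edgeR, where 4.75% of all genes passed. They were Slc7a2, higher, and Slc7a1, Slc7a5 and Slc36a1, lower in MNR litters. Leaving out MNR litter D brought Slc7a2 past 0.05, where 512 genes passed in all, beside 117 with every litter kept. Control litter B holds the fetus with the highest acinar level, and without this fetus alone 0 members and 296 genes passed. Without the 3 fetuses above 100 CPM of acinar markers, a choice made after seeing the data, 0 members and 1.22% of all genes passed. The part of acinar RNA in the result without control litter B was not tested.

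**Figure D1:**
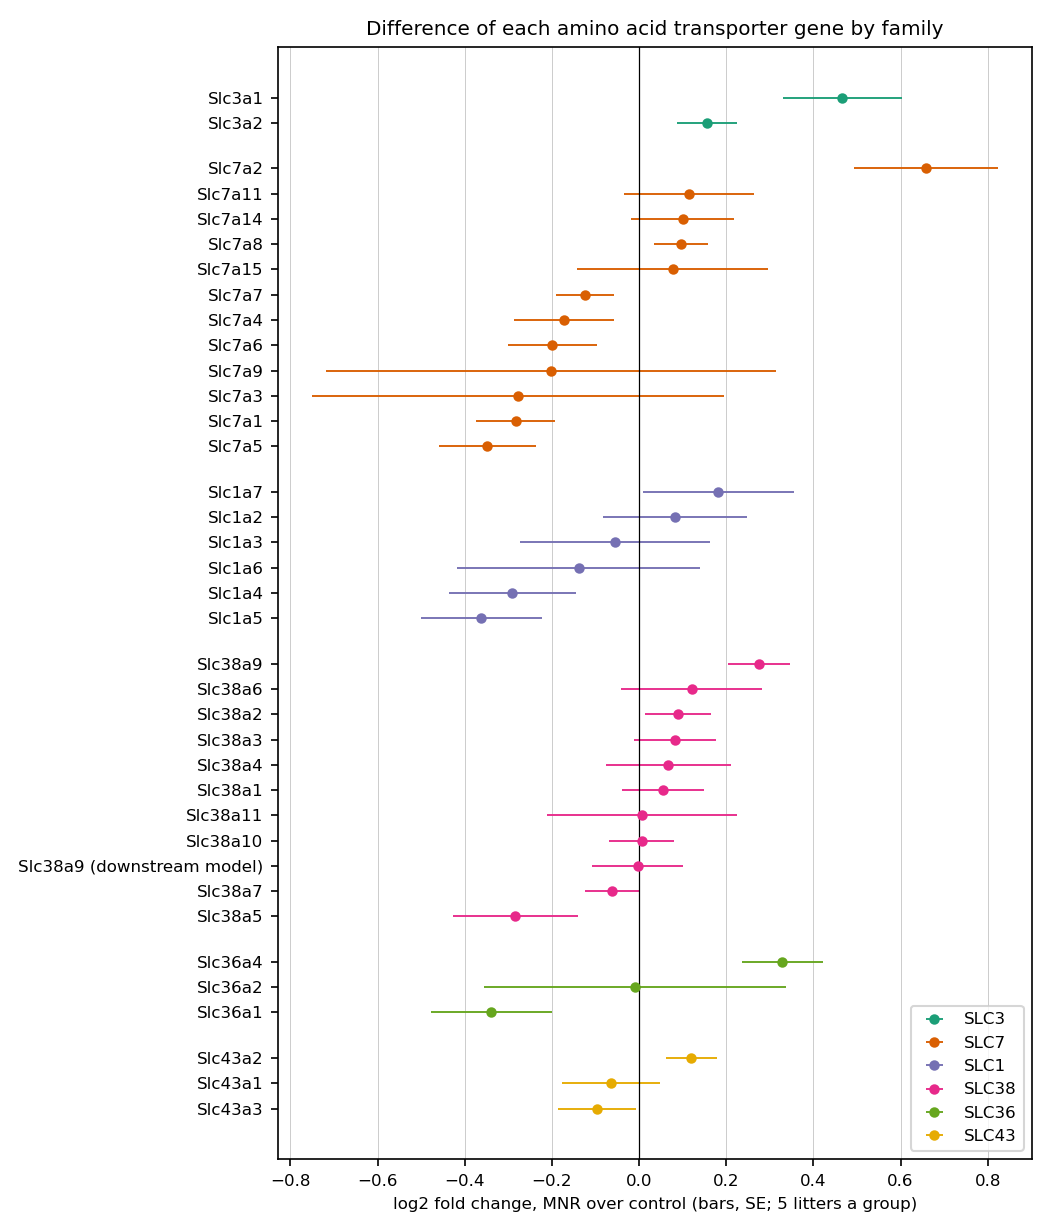
Log2 fold change of MNR over control litters for the 37 tested members, grouped by family and ordered within it, with bars for the SE (5 litters a group; edgeR). Slc7a2 lies farthest to the right at 0.66 and Slc1a5 farthest to the left at -0.36; no member passed an adjusted p of 0.05.

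Levels were compared between genes in TPM, a measure of transcript abundance that divides counts by transcript length. Of the 37 tested members, 18 averaged at least 10 TPM in MNR litters and the same number did so in control litters, 11 lay between 1 and 10 TPM and 8 below 1 TPM. Slc38a4 had the highest level, 279.8 ± 46.8 TPM in MNR litters and 262 ± 50.1 TPM in control litters (SD, n = 5 each). Slc38a3 came next, with 201 ± 19.8 TPM in MNR litters and 190.3 ± 24.9 TPM in control litters. The 3 highest members held 51.4% of the summed TPM of the 37 in MNR litters (Slc38a4, Slc38a3 and Slc7a2) and 48.1% in control litters (Slc38a4, Slc38a3 and Slc43a3). Means ± SD of Slc38a4 and Slc38a3 did not overlap in MNR litters and did in control litters, and those of Slc7a2, Slc43a3 and Slc38a10 overlapped in control litters. In MNR litters, Slc7a2 lay apart from Slc43a3 and Slc38a10, which had 67.4 ± 4.34 and 66.3 ± 4.40 TPM. All means below are given ± SD over the 5 litters of a group.

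**Figure D2:**
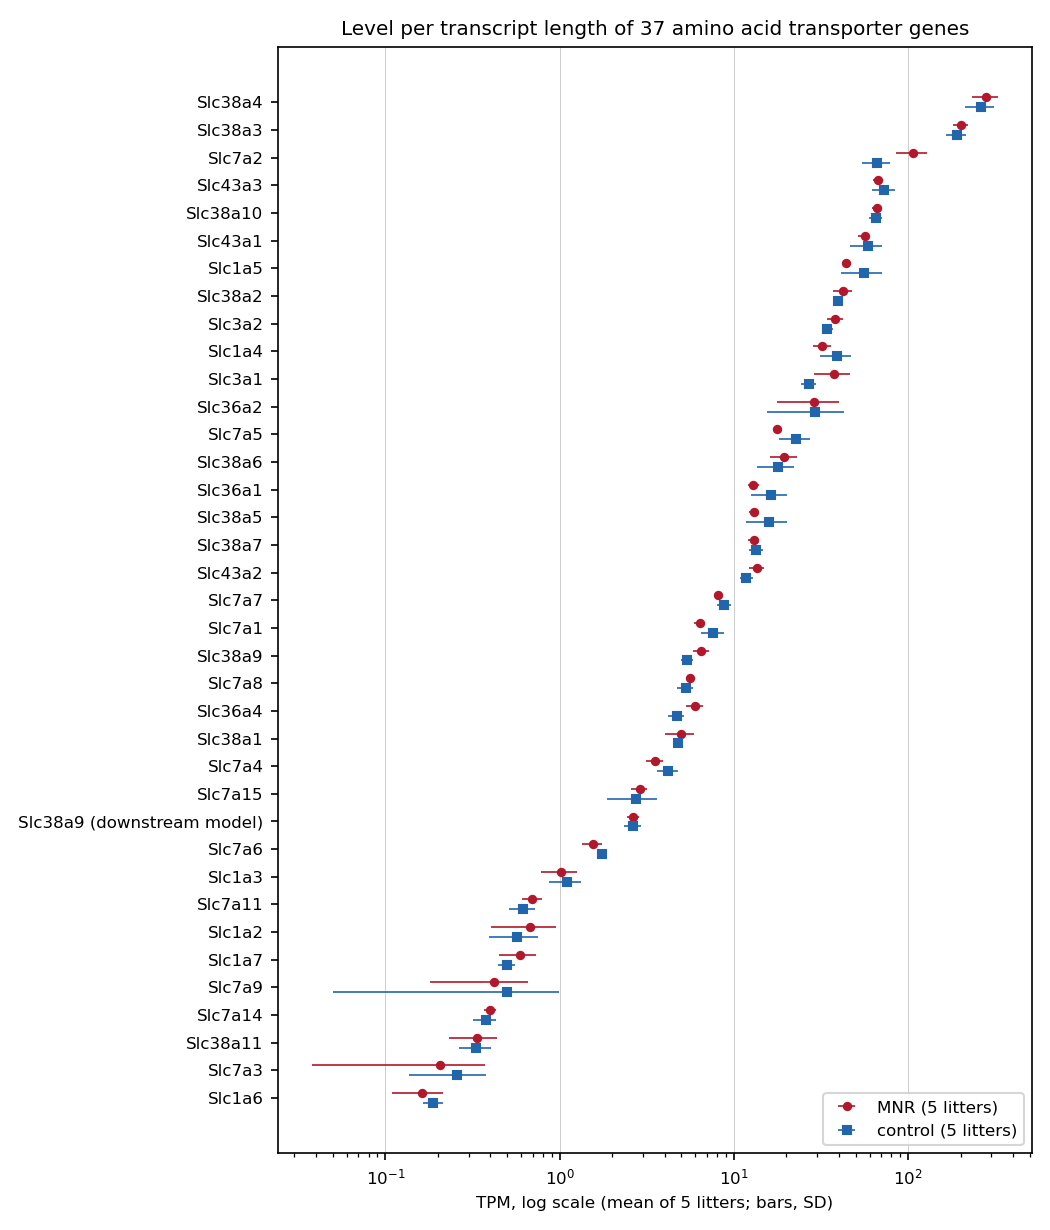
Level of the 37 tested members in TPM on a log axis, MNR (circles) above control (squares), as the mean of 5 litters with bars for the SD. Slc38a4 is at the top with 279.8 TPM in MNR and 262 TPM in control litters, and Slc1a6 is at the bottom with 0.162 TPM in MNR and 0.188 TPM in control litters.

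Of the heavy chains, Slc3a1 encodes rBAT, the partner of the cystine and cationic amino acid exchanger made by Slc7a9. Slc3a1 (mm9 chr17:85427687-85463583, forward strand) had 74.7, 61.7, 43.3, 44.8 and 62.7 CPM in the MNR litters A to E, against 39.4, 39.5, 45.4, 44.5 and 38.9 CPM in the control litters A to E. MNR litters A, B and E lay above every control litter, and MNR litters C and D lay among them. Its means were 57.5 ± 13.3 CPM in MNR litters and 41.6 ± 3.13 CPM in control litters (log2 fold change 0.47, SE 0.14, edgeR adjusted p = 0.101). DESeq2 gave it an adjusted p of 0.0247. Exons of Prepl, a peptidase-like gene, overlap those of Slc3a1 on the opposite strand, and whether the counting used strand is not given. Prepl itself averaged 17.2 ± 1.5 CPM in MNR litters and 16.3 ± 1.43 CPM in control litters (log2 fold change 0.08). The light chain partner Slc7a9 was near the filter, at 0.453 ± 0.240 CPM in MNR litters and 0.521 ± 0.461 CPM in control litters (log2 fold change -0.20, SE 0.52, edgeR adjusted p = 0.864).

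Slc3a2 encodes the CD98 heavy chain, which pairs with the light chains of Slc7a5, Slc7a6, Slc7a7, Slc7a8, Slc7a10 and Slc7a11. Slc3a2 had 68.8, 66.8, 64.3, 63.6 and 79.1 CPM in the MNR litters A to E, against 62.6, 59.9, 58.3, 67.5 and 59.2 CPM in the control litters A to E. The 5 MNR litters lay above 4 of the control litters, and control litter D lay among them. Its means were 68.5 ± 6.28 CPM in MNR litters and 61.5 ± 3.74 CPM in control litters (log2 fold change 0.16, SE 0.07, edgeR adjusted p = 0.241), and without MNR litter E the log2 fold change was 0.10. The light chains did not share a sign: Slc7a8 had a log2 fold change of 0.10 and Slc7a11 of 0.11, against -0.35 for Slc7a5, -0.20 for Slc7a6 and -0.12 for Slc7a7, with adjusted p from 0.123 to 0.715. Exons of Slc7a7 overlap those of Oxa1l on the opposite strand, and reads of the pair cannot be told apart if strand was not used. Oxa1l averaged 49.3 ± 1.17 CPM in MNR litters and 45.9 ± 3.96 CPM in control litters (log2 fold change 0.10). Slc7a5 encodes LAT1, the exchanger of large neutral amino acids such as leucine. It had 38.9, 43.1, 42.1, 45.1 and 38.7 CPM in the MNR litters A to E, against 57.6, 40.2, 51.6, 66.2 and 48.8 CPM in the control litters A to E. Control litter B lay among the MNR litters and the other 4 control litters lay above them all (log2 fold change -0.35, SE 0.11, edgeR adjusted p = 0.123).

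Slc7a2 encodes the cationic amino acid transporter CAT-2, which carries arginine, lysine and ornithine and is the main such carrier of liver cells. It had the largest fold change among the 37 members, with 520.3, 484, 390.5, 295 and 492 CPM in the MNR litters A to E, against 231, 338, 239.7, 241 and 332 CPM in the control litters A to E. MNR litters A, B, C and E lay above every control litter, and MNR litter D lay below control litters B and E. Means were 436 ± 92.8 CPM in MNR litters and 277 ± 53.8 CPM in control litters, a 1.58-fold difference (log2 fold change 0.66, SE 0.16, edgeR adjusted p = 0.0731). In single fetuses the value was 248 to 636 CPM in the 10 MNR fetuses (median 431), against 214 to 364 CPM in the 10 control fetuses (median 255). The lowest MNR fetus was from litter D, at 248 CPM, and its littermate had 381 CPM. DESeq2 gave an adjusted p of 0.00401 and limma voom one of 0.0114. Without MNR litter D the log2 fold change was 0.77 with an edgeR adjusted p of 0.0207, and without control litter B it was 0.74 with 0.0351. Leaving out any of the other 8 litters gave an edgeR adjusted p of 0.0953 to 0.168. Over all genes, 512 passed without MNR litter D and 843 without control litter B, beside 117 with every litter kept. With only fetus 1 of each litter the log2 fold change of Slc7a2 was 0.63 (adjusted p = 0.352), and with only fetus 2 it was 0.72 (adjusted p = 0.0303). The annotated noncoding gene Gm17475 overlaps its exons on the opposite strand and held 25 counts over all MNR fetuses and 23 over all control fetuses, where Slc7a2 held 88343 over all MNR fetuses and 57058 over all control fetuses.

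The Slc7a2 gene (mm9 chr8:41947750-42007662, forward strand) is spliced with 1 of 2 neighbouring exons that stand in for each other, and such splicing is known to give forms of CAT-2 that differ in affinity for arginine. The exons are shown because the count table lists transcripts with each of them. The exon of 140 bases lies at chr8:41993410-41993549 and that of 137 bases at chr8:41993752-41993888, both on the forward strand. Capitals mark the bases that differ between them in an alignment with 84 identical positions, 61.3% of the shorter exon.
Slc7a2 exon of 140 bases: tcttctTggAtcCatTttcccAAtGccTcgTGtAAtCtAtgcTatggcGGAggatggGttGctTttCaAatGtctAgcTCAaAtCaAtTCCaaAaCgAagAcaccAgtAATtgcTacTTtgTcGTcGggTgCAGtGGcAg
Slc7a2 exon of 137 bases: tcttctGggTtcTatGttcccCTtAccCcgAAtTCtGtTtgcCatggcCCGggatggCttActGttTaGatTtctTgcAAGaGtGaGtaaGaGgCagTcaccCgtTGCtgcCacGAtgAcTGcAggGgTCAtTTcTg
The transcripts Slc7a2-001 and Slc7a2-004 hold the 137-base exon, with 34855 and 9784 counts over MNR fetuses, against 22638 and 6147 over control fetuses. Slc7a2-002 and Slc7a2-003 hold the 140-base exon, with 33455 and 10237 counts over MNR fetuses, against 21773 and 6493 over control fetuses. The share of these counts on transcripts with the 137-base exon was 50.1% to 51.3% in MNR litters and 49.4% to 51.0% in control litters, so the counts assigned to either kind were higher in MNR litters by about the same factor. How reads from the shared part of the gene were divided among transcripts is not given, so these shares are those of the submitters' assignment of reads. An even division of shared reads would give near-equal shares whatever the splicing, so the shares do not measure which exon was used.

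The other cationic carriers were lower in level. Slc7a1, which encodes the widely expressed carrier CAT-1, had 21.9, 20.6, 20.8, 23.5 and 24.5 CPM in the MNR litters A to E, against 29.8, 22.4, 28.2, 30.6 and 24.4 CPM in the control litters A to E. Control litters A, C and D lay above all MNR litters, and B and E lay among them (log2 fold change -0.28, SE 0.09, edgeR adjusted p = 0.121). With only fetus 1 of each litter the log2 fold change was -0.16, and with only fetus 2 it was -0.42. The fold changes of Slc7a1 and Slc7a2 had opposite signs, and per length the level of Slc7a2 was 107 ± 21.9 TPM in MNR litters and 66.5 ± 11.9 TPM in control litters, beside 6.36 ± 0.480 TPM in MNR litters and 7.63 ± 1.15 TPM in control litters for Slc7a1. Slc7a3, the third gene of the group, averaged 0.320 ± 0.232 CPM in MNR litters and 0.379 ± 0.143 CPM in control litters, and its log2 fold change of -0.28 had an SE of 0.47. Slc7a4, a related gene, averaged 5.04 ± 0.663 CPM in MNR litters and 5.66 ± 0.769 CPM in control litters, and Slc7a14 averaged 2.36 ± 0.141 CPM in MNR litters and 2.20 ± 0.346 CPM in control litters. Slc7a15, a rodent carrier of aromatic amino acids, averaged 2.94 ± 0.275 CPM in MNR litters and 2.78 ± 0.885 CPM in control litters. Adjusted p of these last 4 ran from 0.446 to 0.879.

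**Figure D3:**
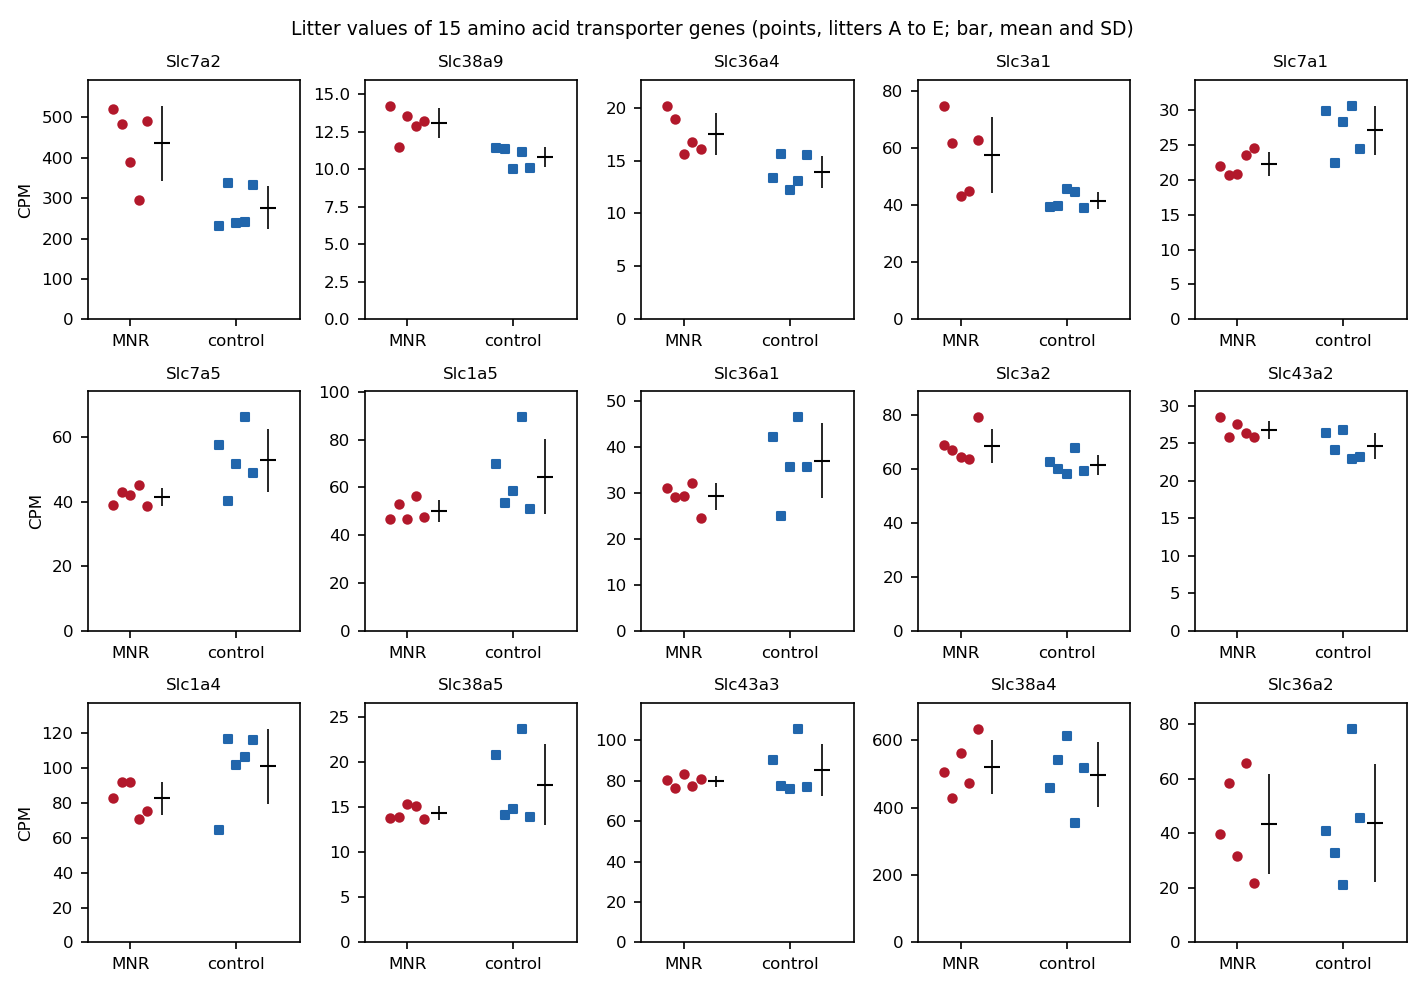
CPM of each litter for the 15 members named by rule, ordered by p, with MNR litters (circles) left of control litters (squares), litters A to E from left to right, and the mean and SD beside them. In Slc38a9 and Slc36a4 the groups do not overlap, and in Slc7a2 only MNR litter D, at 295 CPM, lies within the control range.

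In the SLC1 family, Slc1a5 encodes ASCT2, an exchanger of glutamine and other small neutral amino acids. It had 46.7, 53.2, 46.8, 56.6 and 47.5 CPM in the MNR litters A to E, against 69.8, 53.5, 58.4, 89.4 and 51.1 CPM in the control litters A to E. Control litters A, C and D lay above all MNR litters (log2 fold change -0.36, SE 0.14, edgeR adjusted p = 0.18). Without control litter D the log2 fold change was -0.21 (adjusted p = 0.296). Slc1a4 encodes the related exchanger ASCT1, for alanine, serine and cysteine, and had 83.0, 92.1, 92.0, 71.1 and 75.5 CPM in the MNR litters A to E, against 64.3, 117, 102, 107 and 116 CPM in the control litters A to E. Control litter A lay below all MNR litters and the other 4 control litters lay above them all (log2 fold change -0.29, SE 0.15, edgeR adjusted p = 0.292). The glutamate carriers were low: Slc1a2, Slc1a3, Slc1a6 and Slc1a7 averaged 0.237 to 1.66 CPM in MNR litters and 0.264 to 1.56 CPM in control litters, with log2 fold changes of -0.14 to 0.18 and adjusted p from 0.599 upwards. Slc1a1 was among the genes that did not pass the filter, with 13 counts over MNR fetuses and 21 over control fetuses. The 6 tested SLC1 genes had a median log2 fold change of -0.10.

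The 11 tested SLC38 models had a median log2 fold change of 0.05, with 8 positive and 3 negative. Slc38a4, an imprinted system A gene of liver and placenta, had 507, 428, 563, 472 and 634 CPM in the MNR litters A to E, against 459, 541, 613, 355 and 517 CPM in the control litters A to E. The groups overlapped over most of their range (log2 fold change 0.07, SE 0.14, edgeR adjusted p = 0.834). Slc38a3, a system N glutamine carrier of liver cells, had a log2 fold change of 0.08 and Slc38a2, the system A carrier known to be induced when amino acids run short, one of 0.09, with adjusted p of 0.667 and 0.557. Slc38a2 averaged 130.4 ± 14.3 CPM in MNR litters and 123 ± 5.99 CPM in control litters. Slc38a1, Slc38a2 and Slc38a4 lie side by side on the reverse strand of chromosome 15, between 96401849 and 96886387 in mm9, and their log2 fold changes were 0.05, 0.09 and 0.07. Slc38a5, a second system N carrier, had 13.8, 13.9, 15.4, 15.1 and 13.7 CPM in the MNR litters A to E, against 20.8, 14.1, 14.9, 23.7 and 14.0 CPM in the control litters A to E. Control litters A and D lay above all others (log2 fold change -0.28, SE 0.14, edgeR adjusted p = 0.30). Without control litter D the log2 fold change was -0.15 (adjusted p = 0.555). Slc38a6, Slc38a7, Slc38a10 and Slc38a11 had log2 fold changes of -0.06 to 0.12. Slc38a7 makes a lysosomal glutamine carrier, and it averaged 21.0 ± 1.06 CPM in MNR litters and 21.9 ± 1.66 CPM in control litters.

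Slc38a9 encodes a lysosomal protein that senses arginine for mTORC1. It had 14.2, 11.5, 13.6, 12.9 and 13.2 CPM in the MNR litters A to E, against 11.4, 11.4, 10.0, 11.2 and 10.1 CPM in the control litters A to E. The lowest MNR litter was just above the highest control litters, so the groups did not overlap. Means were 13.1 ± 1.01 CPM in MNR litters and 10.8 ± 0.686 CPM in control litters (log2 fold change 0.28, SE 0.07, edgeR adjusted p = 0.0785). Among single fetuses the ranges did overlap, at 10.8 to 15.9 CPM in MNR and 8.85 to 12.5 CPM in control fetuses. With only fetus 1 of each litter the log2 fold change was 0.16, and with only fetus 2 it was 0.39. The single-exon model downstream that carries the same symbol averaged 2.44 ± 0.165 CPM in MNR litters and 2.45 ± 0.257 CPM in control litters (log2 fold change -0.0034).

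Slc36a1, Slc36a2 and Slc36a3 lie together on chromosome 11. Slc36a1, which encodes the lysosomal proton-coupled carrier PAT1, had 31.0, 29.1, 29.4, 32.2 and 24.6 CPM in the MNR litters A to E, against 42.2, 24.9, 35.7, 46.5 and 35.7 CPM in the control litters A to E. Control litter B lay among the MNR litters and the other 4 lay above them all (log2 fold change -0.34, SE 0.14, edgeR adjusted p = 0.210). Its neighbour Slc36a2, a carrier of glycine and proline on the opposite strand, had 39.6, 58.5, 31.8, 65.8 and 21.9 CPM in the MNR litters A to E, against 40.7, 32.9, 21.0, 78.3 and 45.7 CPM in the control litters A to E. It spread the most of the 15 named members relative to its mean, and the means were 43.5 ± 18.3 CPM in MNR litters and 43.7 ± 21.5 CPM in control litters (log2 fold change -0.0092, SE 0.35, edgeR adjusted p = 0.992). Slc36a4, on chromosome 9, encodes a high-affinity carrier of proline and tryptophan and had 20.2, 18.9, 15.6, 16.8 and 16.1 CPM in the MNR litters A to E, against 13.3, 15.6, 12.2, 13.1 and 15.5 CPM in the control litters A to E. The lowest MNR and the highest control litter both rounded to 15.6 CPM, with the MNR litter just above (log2 fold change 0.33, SE 0.09, edgeR adjusted p = 0.0964). DESeq2 gave Slc36a4 an adjusted p of 0.0296 and limma voom gave 0.0321. In edgeR, leaving out a litter gave adjusted p of 0.0512 to 0.204. With only fetus 1 of each litter the log2 fold change of Slc36a4 was 0.22 (adjusted p = 0.592), and with only fetus 2 it was 0.46 (adjusted p = 0.0304).

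Of the SLC43 genes, Slc43a2 encodes LAT4, a carrier of branched-chain amino acids and phenylalanine. It had 28.5, 25.9, 27.6, 26.4 and 25.8 CPM in the MNR litters A to E, against 26.4, 24.1, 26.7, 22.9 and 23.2 CPM in the control litters A to E. MNR litters A and C lay above all control litters and the rest overlapped (log2 fold change 0.12, SE 0.06, edgeR adjusted p = 0.288). Slc43a1, which encodes the related LAT3, averaged 98.0 ± 5.16 CPM in MNR litters and 102 ± 20.1 CPM in control litters (log2 fold change -0.06). Slc43a3, the purine nucleobase carrier next to it on chromosome 2, had 80.3, 76.7, 83.4, 77.5 and 81.0 CPM in the MNR litters A to E, against 90.2, 77.4, 76.1, 106 and 76.9 CPM in the control litters A to E. Control litters A and D lay above all others (log2 fold change -0.10, SE 0.09, edgeR adjusted p = 0.585), and without control litter D the log2 fold change was -0.0069.

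The 6 models that did not pass the filter had few counts. Slc7a12 had 0 counts in either group, which allows up to 0.0146 CPM in MNR fetuses and 0.0144 CPM in control fetuses, taking 3 counts over the summed counts of a group. Slc7a13, an rBAT partner of the kidney, had 4 counts over MNR fetuses and 8 over control fetuses. Slc36a3 had 4 counts over MNR fetuses and 3 over control fetuses, and Slc38a8 had 3 over MNR fetuses and 2 over control fetuses. Slc7a10, a CD98 partner for small neutral amino acids, had 32 over MNR fetuses and 38 over control fetuses, and its exons overlap those of Lrp3 on the opposite strand, which had 993 over MNR fetuses and 1122 over control fetuses. Slc1a1, Slc1a2, Slc7a4 and Slc38a10 also overlap an annotated gene on the opposite strand, none of which averaged over 0.397 CPM in MNR or 0.321 CPM in control litters. These limits cover counting error only.

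Littermates were closer to each other than to other fetuses for most members. For 29 of the 37 tested members the median log2 difference was smaller between littermates (10 pairs) than between fetuses of different litters of a group (80 pairs). For Slc7a2 it was 0.18 between littermates and 0.35 between litters, and for Slc36a2 it was 0.48 between littermates and 0.71 between litters. Slc38a9 was an exception, with 0.17 between littermates and 0.14 between litters. Some differences were slight, as for Slc38a1, with 0.134 between littermates and 0.135 between litters. The count of 29 was not made over all genes, so it is not read as particular to transporters.

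Several members with lower means in MNR litters were highest in the control litters richest in erythroid RNA. The mean log2 CPM of the 7 erythroid markers was 8.78, 8.94, 8.78, 8.85 and 8.63 in MNR litters A to E, against 9.06, 8.71, 8.73, 9.27 and 8.78 in control litters A to E. Control litters A and D had the highest values of all 10. They were also the 2 highest control litters for 12 of the 37 members (32.4%), against 14.5% of all genes: Slc1a3, Slc1a5, Slc36a1, Slc38a5, Slc3a2, Slc43a1, Slc43a3, Slc7a1, Slc7a4, Slc7a5, Slc7a9 and Slc7a15. Of these 12, Slc3a2 and Slc7a15 had higher means in MNR litters. The count was made after the values were seen. With the erythroid level as a covariate, the log2 fold change was -0.20 for Slc1a5, -0.23 for Slc7a5, -0.19 for Slc36a1, -0.11 for Slc38a5 and -0.23 for Slc7a1, each nearer to 0 than without it. It was -0.32 for Slc1a4 and 0.17 for Slc3a2, both farther from 0. Over the 37 members, the covariate moved the log2 fold change nearer to 0 for 19, farther from 0 for 11 and past 0 for 7. These counts were not made over all genes, so they are not read as particular to transporters. For Slc7a2, Slc3a1, Slc36a4 and Slc38a9 the log2 fold change with the covariate was 0.58, 0.47, 0.32 and 0.28. With this covariate, edgeR called 0 members and 51 genes in all. Whether erythroid RNA has a part in the lower means of these members was not tested.

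**Figure D4:**
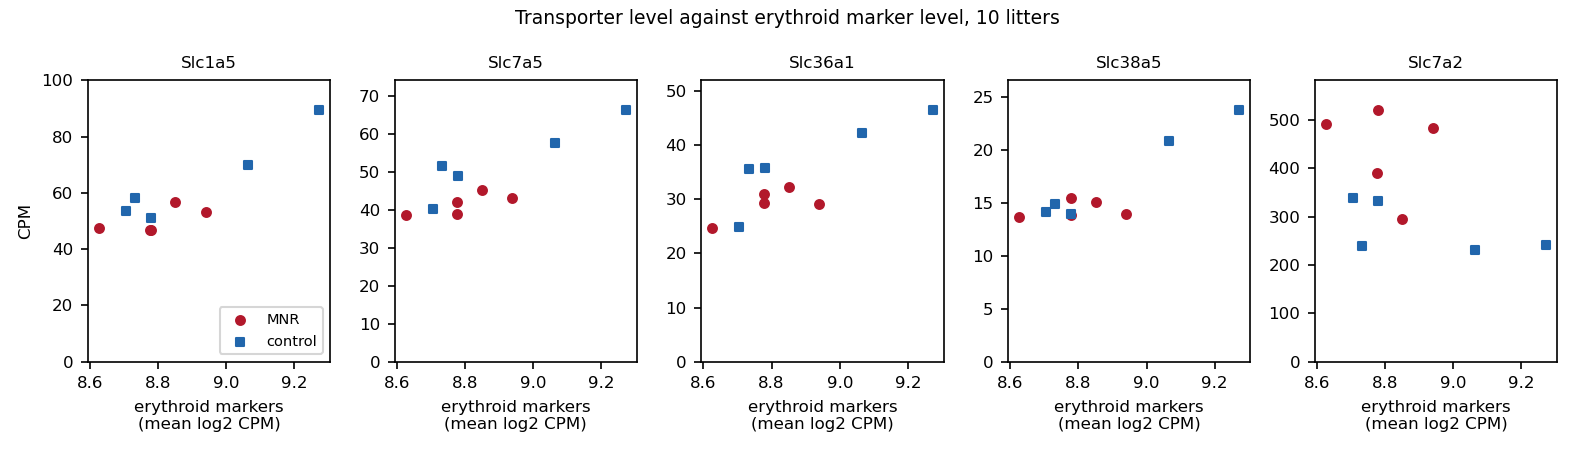
CPM of 5 members in each litter against the mean log2 CPM of 7 erythroid markers in the same litter, for 5 MNR litters (circles) and 5 control litters (squares). For Slc1a5, Slc7a5, Slc36a1 and Slc38a5 the highest points are control litters D and A, at erythroid levels of 9.27 and 9.06, and for Slc7a2 these 2 litters are among the lower points.

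Genes of other amino acid pathways were read in the same fit. Of 22 other amino acid and peptide transporters, 17 were tested and 1 passed, with a median log2 fold change of 0.06, beside 0.666% past the threshold and a median of -0.0027 over all genes. It was Slc15a4, which encodes a lysosomal carrier of histidine and peptides, and it rose in MNR litters, with 30.6 ± 4.35 CPM in MNR litters and 20.1 ± 3.32 CPM in control litters (log2 fold change 0.61, edgeR adjusted p = 0.0467). Leaving out any of the 10 litters other than control B and MNR D took its adjusted p to 0.0638 to 0.124, and the erythroid covariate took it to 0.0705. Pqlc2, a lysosomal exporter of cationic amino acids, had a log2 fold change of 0.62 (adjusted p = 0.0802), and Slc6a6, the taurine carrier, one of 0.14 (adjusted p = 0.263). At an unadjusted p of 0.05, edgeR took 2 of the 17 other transporters (11.8%), against 19.6% of all genes. Of 11 mitochondrial carriers, 9 were tested and none passed in edgeR, with a median of 0.02. Of these 9, 1 (11.1%) had an unadjusted p under 0.05, against 19.6% of all genes. The smallest p there were those of Sfxn1, a serine carrier, Slc25a44, a branched-chain amino acid carrier, and Slc25a22, a glutamate carrier, whose log2 fold changes were 0.17, -0.20 and -0.18 (adjusted p = 0.200, 0.259 and 0.376).

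Of 27 genes of the amino acid response run by the kinase GCN2 and the factor ATF4, 26 were tested. Of these, 1 passed in edgeR, beside 0.666% of all genes, and the median log2 fold change was -0.01. Cebpb, a transcription factor of the liver, rose in MNR litters, with 37.2 ± 3.83 CPM in MNR litters and 26.4 ± 2.29 CPM in control litters (log2 fold change 0.49, edgeR adjusted p = 0.0286). Leaving out any of the 10 litters other than control B, MNR C and MNR D took its adjusted p to 0.0584 to 0.0871. Cars, a cysteine tRNA ligase, had -0.50 (adjusted p = 0.0515) and Cth, an enzyme of cysteine synthesis, 0.78 (adjusted p = 0.0526). In the same litters the 7 neutrophil and 5 megakaryocyte markers had median log2 fold changes of 0.26 and 0.25, and their part in the results for Slc7a2, Slc15a4 and Cebpb was not tested. At an unadjusted p of 0.05, 10 of the 26 were taken (38.5%), 3 higher and 7 lower, against 19.6% of all genes. The gene lists were chosen with earlier results of these data known, so such shares are not independent of those results. Of 33 genes that sense amino acids for mTORC1, 30 were tested and none passed in edgeR, with a median of 0.04 and 8 (26.7%) at an unadjusted p of 0.05, against 19.6% of all genes. The smallest p were those of Fnip1 (0.43, adjusted p = 0.0581), Sec13 (-0.37, adjusted p = 0.0587) and Rragc (0.22, adjusted p = 0.0808). Of 15 partners and regulators of the transporters, all were tested and none passed in edgeR, with a median of 0.04 and 4 (26.7%) at an unadjusted p of 0.05, against 19.6% of all genes. Gclm and Gclc, the subunits of the enzyme that begins glutathione synthesis, had -0.20 and -0.27, and Txnip, an arrestin-like protein, had 1.16 (adjusted p = 0.118, 0.137 and 0.151).

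Promoters of 31 of the 42 symbols were found in the RefSeq table (GRCm38.p6), 42 promoters of 300 bases, from 250 before the start to 50 after it. Slc1a5, Slc36a2, Slc38a1, Slc38a3, Slc43a3, Slc7a12, Slc7a13, Slc7a2, Slc7a3, Slc7a4 and Slc7a5 were not matched. The composite element TGATGNAA, to which ATF4 binds with a CCAAT enhancer-binding protein, was in 4 of the 42 member promoters, of Slc7a11, Slc1a4 and Slc7a7 (both of its promoters), on either strand, and in 3.97% of all 32851 promoters. The promoters of Slc7a7 overlap and share a match, so that site is counted for each of them. The promoters of Slc7a11, which encodes the cystine and glutamate exchanger xCT, and of Slc1a4 are shown because both genes are known as ATF4 targets. Capitals mark the matches, which in Slc7a11 begin 66 bases before the start on the promoter's strand and 47 before it on the opposite strand, and in Slc1a4 begin 4 before it on the opposite strand. Slc7a11 lies at chr3:50443564-50443863 and Slc1a4 at chr11:20332664-20332963, both on the reverse strand.
Slc7a11 promoter: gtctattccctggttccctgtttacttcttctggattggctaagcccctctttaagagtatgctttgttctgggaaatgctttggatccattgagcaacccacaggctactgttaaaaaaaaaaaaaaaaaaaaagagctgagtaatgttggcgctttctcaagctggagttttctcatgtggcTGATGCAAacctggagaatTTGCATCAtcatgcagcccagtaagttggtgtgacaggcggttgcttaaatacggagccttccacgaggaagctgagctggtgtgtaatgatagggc
Slc1a4 promoter: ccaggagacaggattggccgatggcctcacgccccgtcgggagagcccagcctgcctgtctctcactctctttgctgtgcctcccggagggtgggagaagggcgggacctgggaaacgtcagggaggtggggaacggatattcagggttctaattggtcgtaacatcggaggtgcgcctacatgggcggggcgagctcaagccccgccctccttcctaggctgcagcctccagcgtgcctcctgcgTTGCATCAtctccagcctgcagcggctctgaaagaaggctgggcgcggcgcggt
Slc7a11 averaged 1.59 ± 0.222 CPM in MNR litters and 1.47 ± 0.254 CPM in control litters (log2 fold change 0.11, SE 0.15, edgeR adjusted p = 0.715), and for Slc1a4, described above, the log2 fold change was -0.29. The forkhead motif GTAAACA was in 2 of the 42 promoters, of Slc36a3 and Slc7a11, and in 3.65% of all. The palindromic motif of the glucocorticoid receptor was in 0 of the 42 and in 3 of all 32851 promoters. Both were searched on either strand.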

How the data were processed

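Right liver lobes of 20 male fetuses were profiled by sequencing of polyadenylated RNA, with libraries from 1 directional kit, per the labels' protocols. The deposited values are whole-number counts per transcript in each fetus, not normalised. The submitters' processing notes name build mm9 and the tools Bowtie2, FastQC, edgeR and DESeq2. The sources used here do not name the counting tool or any version, nor say how strand and reads with several matches were treated. A deposited gene table equals the summed transcript counts for 8.52% to 9.66% of genes in a fetus and was not used.

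Transcript counts were summed to genes with the GENCODE M1 annotation of the same build (NCBIM37), which also gave coordinates and overlaps. Transcripts that matched no gene, 0.0788% to 0.154% of counts, were left out. Counts of the 2 littermates were summed. The fit was edgeR 4.0.16 in R 4.3.3: filterByExpr at a minimum count of 10, TMM scaling, and the two-sided quasi-likelihood test adjusted by Benjamini-Hochberg, at a threshold of 0.05. CPM uses TMM-scaled library sizes. TPM was computed from transcript counts and exonic lengths and averaged over littermates. Alternatives were DESeq2 1.42.0, limma 3.58.1 (voom, with litters as random effects), other scalings and filters, marker levels as covariates, a replicate block, and leaving out fetuses or litters. The labels give separate litters and no batch or date. On simulated counts for 17573 genes in this comparison, 71 of 100 changes of 1.5-fold and 97 of 100 changes of 2-fold were recovered, and 13 of 181 calls were false. The changed genes were drawn only from those above a minimum expected count, so this recovery does not cover the members of lowest level. Each gene was simulated independently, so variation that a litter shares across genes is not covered either.

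The members and gene lists were chosen with earlier results of these data known. Values per litter are given for members past the threshold, the 12 of smallest p, the highest TPM of each family, the heavy chains, and those with at least 1 CPM and a log2 fold change of 0.5 in size. Of the other lists, genes past the threshold and up to 3 of smallest p are named.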

Additional observations from a re-analysis of the deposited data

Results flagged for a closer look

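For the 37 tested members, the 5 litters of each group were looked at for a litter far from the other 4, by Dixon's ratio of gap to range with a critical value of 0.71. Of 74 sets of litters, 5 held such a litter, where chance gives about 1 in 20, and all 5 were control litters. Slc1a4, the alanine, serine and cysteine exchanger, had 64.3 CPM in control litter A, against 102 to 117 CPM in the other control litters. Slc7a15, the aromatic amino acid carrier, had 1.21 CPM in control litter B, against 3.06 to 3.34 CPM in the others. Slc7a4 had 6.99 CPM in control litter D, against 5.09 to 5.60 CPM in the others. At low levels, Slc7a9 had 1.32 CPM in control litter A, against 0.215 to 0.516 CPM in the others, and Slc7a3 had 0.133 CPM in control litter E, against 0.400 to 0.496 CPM in the others. Without control litter A, the log2 fold change of Slc1a4 was -0.42, beside -0.29 with it, and neither passed the test.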

How the results depend on the processing

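The number of transporter genes past an adjusted p of 0.05, 0 of 37 as reported, was 7 with each fetus as its own library, 3 in limma voom (litters as random effects), 4 with fetus 2 of each litter alone, 4 with DESeq2 and 3 at an adjusted p of 0.10. It ranged from 0 to 4 when a litter was left out. With other scalings, filters, marker covariates or acinar-rich fetuses left out, it was again 0. The number over all genes, 117 as reported, was 2301, 1088, 499, 1163 and 875 under those 5 choices and 0 with fetus 1 of each litter alone, where 1699 genes had an unadjusted p under 0.05. It was 178 with upper-quartile scaling, where 38.2% of calls were higher in MNR litters, against 62.4% as reported, and 53.3% with each fetus as its own library. It was 51 with the erythroid covariate, 296 without the fetus above 10 times the median acinar level and 215 without the 3 above 100 CPM. It ranged from 0 to 843 when a litter was left out, 843 when it was control litter B and 512 when it was MNR litter D. The fit with the litter letter as a replicate block called 232 genes and 1 member, Slc7a2 (adjusted p = 0.0484). Deviations of the 2 litters of a letter correlated above 0.1 for 3 of the 5 letters (B, C and D, 0.15 to 0.18) and not for A (0.026) and E (-0.0093), and 4 of the 10 litters correlated best with their own letter, so the letters were not taken as pairing the litters. For the 15 transporters named by rule plus Slc15a4 and Cebpb, 369 of 425 values kept their direction and side of the threshold, 24 passed it, 18 (all of Slc15a4 and Cebpb) lost it and 14 changed sign. Slc36a2, -0.0092 as reported, was 0.026 in limma voom, 0.0039 with fetus 2 alone, 0.018 with the replicate block, 0.33 with the erythroid covariate, 0.013 with the acinar covariate, 0.023 without the fetus above 10 times the median acinar level, and -0.21 to 0.31 when a litter was left out. Slc38a4, 0.07 as reported, was -0.071 with the erythroid covariate and -0.032 to 0.15 when a litter was left out. The cause of these shifts was not tested.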
